A study of Mus musculus with 21 samples.

Results

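A set of 9 genes was followed by name through the islet RNA-seq samples: Sox9, Krt19, Krt7, Krt18, Spp1, Cftr, Epcam, Muc1 and Neurog3. They were chosen as genes that mark pancreatic duct cells or that are used by the progenitors from which ducts and islets both develop, and their symbols were matched to the Ensembl identifiers of the count files. The set and the gene lists used below were chosen with earlier results of these data known. Counts of calls among them are therefore descriptions and not independent support. The set holds 9 of the 55536 genes counted. All 9 passed the filter on low counts, a sum of at least 10 read pairs over the 21 samples. In all, 27229 genes passed it. The study asked how O304, a compound that activates AMP-activated protein kinase, changes gene expression in the islets of obese mice. Male CBA mice were given a regular diet (RD), a high-fat diet (HFD), or the same high-fat diet with O304 mixed into the food at 0.8 mg/g (HFD-O304). There were 7 samples per group, each holding RNA of 150 islets pooled from 5 mice, so a sample is a pool and not one animal. The diets started at 10 weeks of age, and their length is given as 9 weeks in one place of the study and as 10 weeks in another. All mice were of one inbred strain, and O304 was given only on top of HFD, so its effect on a regular diet was not measured. HFD replicate 3 was placed in its group by its diet tag, and all other samples by their titles. HFD-O304 replicate 1 carries the name HFD-O304 in its title while its diet tag reads HFD. It was kept in the group of its title, and a call that is lost without it, or with it counted as HFD, is given beside the result for the genes named. With it counted as HFD, only 59 of all genes passed for HFD against RD and 55 for HFD-O304 against RD, where 963 and 356 did as reported.

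The pancreatic duct carries the enzymes of the acinar cells to the gut in a fluid rich in bicarbonate. Its epithelium is held together by keratin filaments and adhesion proteins, secretes chloride and bicarbonate through channels and transporters, and keeps the transcription factor SOX9 throughout life. In the embryo, SOX9 marks progenitors of the pancreatic epithelium, and Notch signalling between neighbouring cells decides which of them switch on Neurog3, the transcription factor that starts the endocrine programme. Neurog3 then induces Neurod1 and other endocrine factors, and it is low in mature islets. Several of these genes are not exclusive to ducts: Epcam, Krt18 and Krt7 are also expressed in endocrine cells, and Spp1 is made by macrophages and many other cells. Islets here were released with collagenase and picked by hand, a preparation that can carry acinar, ductal, vascular and stromal tissue along. In such bulk samples, fewer cells of a type and less RNA per cell cannot be told apart.

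Of the 9 genes, 7 had an entry in the RefSeq table of promoter windows for GRCm38.p6, and Sox9 and Krt19 had none. The 250 bases before the RefSeq start site are printed for Cftr and Neurog3, whose fitted folds between groups were the largest among the genes with a window, and for Muc1, which followed the acinar content of the samples. They lie at chr6:18170437-18170686, chr10:62132840-62133089 and chr3:89228806-89229055, all on the plus strand, and capitals mark every match to a searched motif on either strand.

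Cftr: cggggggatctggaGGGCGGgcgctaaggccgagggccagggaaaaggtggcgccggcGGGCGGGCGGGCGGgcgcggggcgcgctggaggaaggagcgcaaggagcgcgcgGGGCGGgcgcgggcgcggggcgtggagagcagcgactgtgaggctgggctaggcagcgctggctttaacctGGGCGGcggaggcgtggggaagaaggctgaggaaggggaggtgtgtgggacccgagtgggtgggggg
Neurog3: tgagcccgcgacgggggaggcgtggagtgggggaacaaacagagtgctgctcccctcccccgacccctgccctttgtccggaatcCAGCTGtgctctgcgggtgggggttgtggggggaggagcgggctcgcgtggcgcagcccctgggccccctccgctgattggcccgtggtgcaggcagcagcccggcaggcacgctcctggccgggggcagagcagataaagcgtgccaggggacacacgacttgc
Muc1: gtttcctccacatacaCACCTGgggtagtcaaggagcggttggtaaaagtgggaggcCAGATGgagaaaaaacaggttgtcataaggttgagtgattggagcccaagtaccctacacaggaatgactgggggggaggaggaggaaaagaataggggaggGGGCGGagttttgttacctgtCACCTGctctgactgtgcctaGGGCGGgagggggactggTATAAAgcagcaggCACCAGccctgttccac

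The motifs searched were the TATA box (TATAAA), the GC box (GGGCGG), the E-box (CANNTG), the N-box (CACNAG), a SOX motif (AACAAT), an AP-1 motif (TGANTCA) and an RBPJ motif (TGGGAA). The Cftr window held 6 GC boxes, of which the ones at -192, -188 and -184 bases from the start overlap in a single run, and no match to any of the other motifs. No other matches printed here overlap. GC boxes occur in 32.7% of the 32817 windows of the same length. With 76.4% G and C and 30 CpG sites, the Cftr window was also above the median of all windows, 52.4% G and C. The Neurog3 window (71.2% G and C) held 1 E-box, at -165, a motif present in 66.2% of windows. The Muc1 window (54.8% G and C) held a TATA box at -31, GC boxes at -91 and -49, 3 E-boxes and 1 N-box. A TATA box occurs in 12.4% of windows and an N-box in 36.7%. The SOX, AP-1 and RBPJ letters, present in 9.43%, 6.75% and 21.6% of all windows, were not found in these 3 windows.

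Sequencing gave between 13809266 and 48922569 read pairs on genes per sample (median 38719302). Insulin and glucagon were abundant, as the islet label implies: on the per-length scale (normalised read counts per kb of exon, mean of 21 samples) Ins2 stood at 5482000 and Gcg at 503000. The samples fall into sets by the library numbers in the file names, replicates 1 to 4 of each group in one and replicates 5 to 7 in the other. HFD-O304 replicate 4 stood apart for a block of non-endocrine genes, described below with the values without it. Normalised read counts, the unit used from here on unless another is named, are read pairs divided by a size factor for each sample.

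The 9 genes were far apart in level on the per-length scale. Krt18 had the highest level (2356 ± 492, SD over 21 samples), followed by Epcam (1906 ± 86.0), Spp1 (1587 ± 448) and Krt7 (989 ± 152). Neurog3 (70.2 ± 21.2) and Krt19 (57.6 ± 27.5) came far below, then Sox9 (18.2 ± 8.08), Muc1 (16.2 ± 10.7) and Cftr (1.45 ± 2.16). Among all 27229 genes tested, Krt18 ranked 363 and Cftr 22702. Krt18, Epcam, Spp1 and Krt7 lay well above the transcription factors Neurog3 and Sox9, and the channel gene Cftr lay at the bottom. Some neighbours in this order were not separated: Epcam was above Spp1 in 16 of 21 samples but in only 3 of the 7 HFD samples, Neurog3 was above Krt19 in 16 of 21 samples but in 3 of 7 HFD-O304 samples, and Sox9 was above Muc1 in 14 of 21. Spp1, by contrast, was above Krt7 in 20 of 21 samples, and Krt7 was above Neurog3 in all 21.

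The spread within a group also differed widely between genes. Epcam had a coefficient of variation of 2.52% to 6.12% across the groups, against 59.0% in RD and 119.3% in HFD-O304 for Cftr and 54.7% to 74.7% for Muc1. Neurog3 varied by 43.5% among HFD samples but by 10.8% among HFD-O304 samples.

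**Figure D1:**
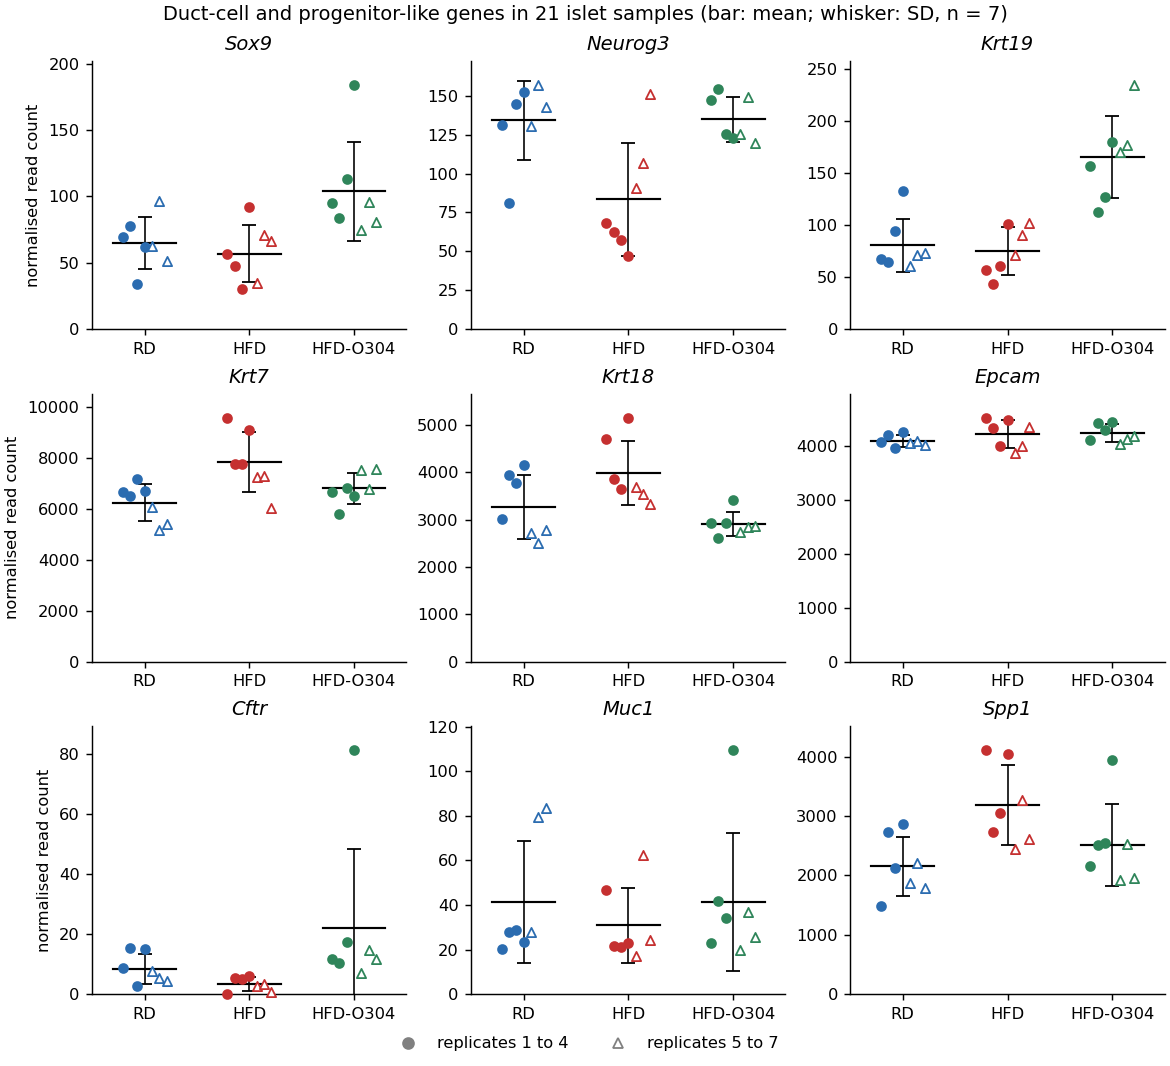
Normalised read counts (vertical axis, linear and starting at 0) of the 9 genes in each of the 21 islet samples, by diet group, with the mean as a bar and the SD (n = 7) as a whisker. All HFD-O304 samples lie above all HFD samples for Krt19 (112.3 and more against 101.7 and less) and for Cftr (7.12 and more against 6.01 and less), and HFD-O304 replicate 4 gives the highest point of its group for 6 of the 9 genes. How many of all genes separate these groups was not counted.

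HFD against RD asked what the diet alone changed. In the edgeR test with all 3 groups in the fit, none of the 9 genes passed an adjusted p of 0.01. Of all genes 3.54% passed, and 822 of the 13216 with a mean of at least 50 counts. At an unadjusted p under 0.05 the count among the 9 was 4 (Krt7, Krt18, Spp1 and Neurog3), where 21% of all genes reached it. DESeq2 called 3 of the 9 (Krt7, Spp1 and Neurog3), where it called 9.92% of all genes. The median log2 fold change of the 9 was -0.10, against -0.004 for all genes tested.

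HFD-O304 against RD asked what remained different under the drug, and 1 of the 9 genes passed, Krt19, where 1.31% of all genes did. HFD-O304 against HFD asked what O304 changed on the same diet. Sox9, Krt19 and Cftr rose and Krt18 fell, which makes 4 of 9 where 11.9% of all genes passed. Among the 13216 genes with a mean of at least 50 counts, 2754 passed here and 334 for HFD-O304 against RD. Of the 9 genes, Cftr and Muc1 lie below that mean. The median log2 fold change of the 9 was 0.13 and 0.45 in these comparisons, against 0.01 and 0.03 for all genes. Without HFD-O304 replicate 4 the median against HFD was -0.004, with Krt19, Cftr and Krt18 still past the threshold, and without HFD replicate 1 only Krt19 and Cftr passed. With HFD-O304 replicate 1 counted as HFD, Krt19 and Cftr passed against HFD, where 5.29% of all genes did. Sox9 (log2 difference 0.78, adjusted p = 0.0434) and Krt18 (-0.41, adjusted p = 0.0242) did not pass. These 3 comparisons share their samples in pairs, so they are given side by side and not as independent of each other. Groups without overlap, here and below, are a description only, because the share of all genes without overlap was not counted.

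**Figure D2:**
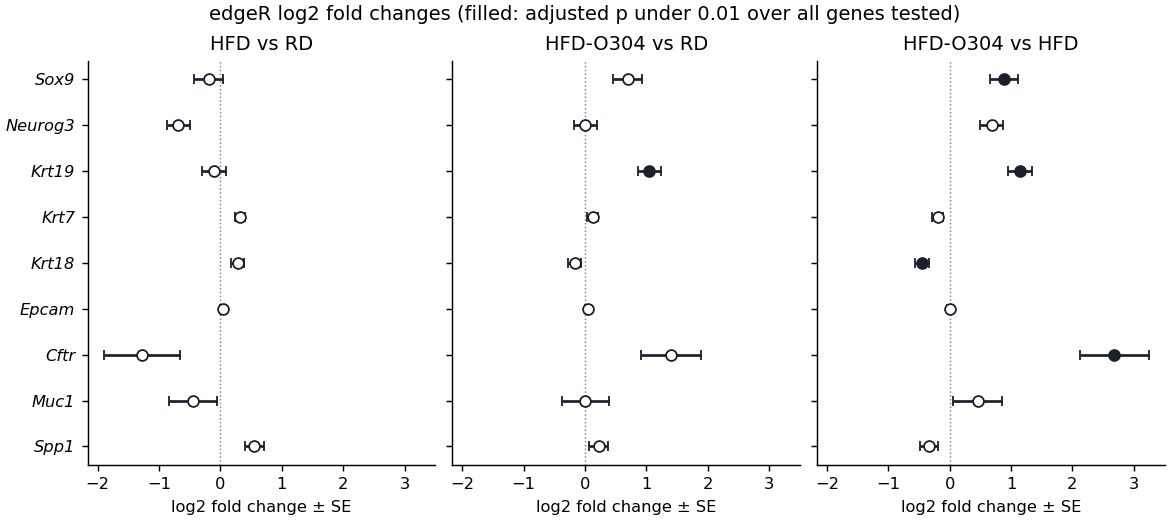
Log2 fold change with its standard error (horizontal axis) for each of the 9 genes in the 3 comparisons, from 1 edgeR fit, with filled points for an adjusted p under 0.01 over all genes. No gene is filled for HFD against RD, Krt19 alone is filled for HFD-O304 against RD, and Sox9, Krt19, Cftr and Krt18 are filled for HFD-O304 against HFD, with Krt18 on the negative side.

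Sox9 lies at chr11:112782224-112787760 on the plus strand and encodes the transcription factor that marks ducts and pancreatic progenitors. Its counts ran from 34.1 through a median of 62.3 to 96.3 on RD, from 30.1 through 56.7 to 92.1 on HFD, and from 74.8 through 95.3 to 184 on HFD-O304. In HFD-O304, 4 of the 7 samples were above every HFD sample, the ranges overlapped, and the highest value was that of HFD-O304 replicate 4. The fold of HFD-O304 over HFD was 1.85 (95% interval 1.34 to 2.55, adjusted p = 0.0077), and against RD it was 1.62 (adjusted p = 0.118). Between HFD and RD the log2 difference was -0.19 ± 0.24 (SE, adjusted p = 0.737).

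The Sox9 call against HFD was close to the threshold and depended on single samples, being kept in 13 of the 21 fits with 1 sample left out. It was lost when any one of HFD replicates 1, 2, 3 or 5 or HFD-O304 replicates 1, 3, 4 or 6 was left out. The log2 differences without these, in that order, were 0.89, 0.85, 0.78 and 0.80, and 0.90, 0.86, 0.69 and 0.90, with adjusted p between 0.0118 and 0.0286. Sox9 was higher in HFD-O304 in every case, so what changed was the side of the threshold. Within replicates 1 to 4 the log2 difference was 1.09 (adjusted p = 0.0308), and within replicates 5 to 7 it was 0.56 (adjusted p = 0.204).

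Krt19, at chr11:100140810-100148665 on the minus strand, encodes the keratin most used to stain pancreatic ducts. Counts were 60.6, 70.9 and 132 (lowest, median and highest) on RD, 43.3, 70.8 and 101.7 on HFD, and 112.3, 170.0 and 234 on HFD-O304. Thus every HFD-O304 sample lay above every HFD sample, while the ranges of RD and HFD overlapped. The 3 lowest HFD samples lay below every RD sample, and RD replicate 4 lay above every HFD sample, within the HFD-O304 range. Krt19 rose 2.22-fold over HFD (95% interval 1.71 to 2.89, adjusted p = 8.14e-05) and 2.07-fold over RD (1.59 to 2.70, adjusted p = 0.00164). HFD against RD gave a log2 difference of -0.10 ± 0.20 (SE, adjusted p = 0.849).

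Krt19 kept both calls when each of the 21 samples was left out in turn, with log2 differences of 1.04 to 1.24 against HFD and 0.95 to 1.22 against RD. Within the library sets, the difference from HFD was past the threshold in each. The difference from RD was 0.69 within replicates 1 to 4 (adjusted p = 0.292) and 1.51 within replicates 5 to 7 (adjusted p = 0.00021), and a test of that difference between sets gave an unadjusted p of 0.0325 and an adjusted p of 0.854. With HFD-O304 replicate 1 counted as HFD, as its diet tag reads, the difference from RD was 1.06 (adjusted p = 0.0299) and no longer passed.

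Krt7 (chr15:101411043-101430313, plus strand) and Krt18 (chr15:102028180-102032027, plus strand) encode keratins of simple epithelia, Krt7 a type II and Krt18 a type I keratin. For Krt7 the lowest, median and highest counts were 5165, 6532 and 7175 on RD, 6049, 7772 and 9586 on HFD, and 5807, 6773 and 7582 on HFD-O304. HFD samples reached higher than the other groups but all 3 ranges overlapped. The fold of HFD over RD was 1.25 (95% interval 1.11 to 1.41) with an adjusted p of 0.0187, so it did not pass. It passed when HFD replicate 7, the lowest HFD sample, was left out (log2 difference 0.37, adjusted p = 0.00248). HFD-O304 against HFD gave a log2 difference of -0.20 ± 0.09 (SE, adjusted p = 0.123) for Krt7. By library set the values had opposite signs, -0.41 within replicates 1 to 4 (adjusted p = 0.00262) and 0.092 within replicates 5 to 7. The test of that difference between sets gave an unadjusted p of 0.000547 and an adjusted p of 0.571 over all genes.

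Krt18 counts were 2507, 3009 and 4146 (lowest, median and highest) on RD, 3325, 3693 and 5145 on HFD, and 2618, 2859 and 3410 on HFD-O304. All HFD-O304 samples other than replicate 4 lay below the lowest HFD sample, and RD overlapped with both groups. HFD replicates 1 and 4 lay above every RD sample. Krt18 fell with O304 to 0.733 times the HFD level (95% interval 0.633 to 0.848, adjusted p = 0.00319). This call was lost without HFD replicate 1 (log2 difference -0.41, adjusted p = 0.0107) and without HFD replicate 4 (-0.38, adjusted p = 0.0107), the highest HFD samples. Within replicates 1 to 4 the difference was -0.55 and within replicates 5 to 7 it was -0.31, both past the threshold. HFD over RD was 1.22-fold (adjusted p = 0.112).

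Krt8, a type II keratin that pairs with Krt18 in filaments, was also highest on HFD. Its counts were 2656 ± 276 on RD, 3320 ± 293 on HFD and 2712 ± 252 on HFD-O304 (SD, n = 7), and no HFD sample overlapped with either other group. Krt8 rose with HFD (log2 difference 0.32 ± 0.07, adjusted p = 0.00589) and was lower in HFD-O304 than in HFD (-0.28 ± 0.07, adjusted p = 0.00519). The first call was lost when any one of RD replicates 4 to 7 or HFD replicates 1, 2 or 4 was left out, and the second without any one of HFD replicates 1, 2 or 4 or HFD-O304 replicates 2, 4 or 6. Neither passed with HFD-O304 replicate 1 counted as HFD (0.29, adjusted p = 0.0378, and -0.27, adjusted p = 0.0203). The ratio of Krt8 to Krt18 counts was 0.832 ± 0.120 on RD, 0.842 ± 0.0703 on HFD and 0.938 ± 0.104 on HFD-O304.

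Epcam (chr17:87635979-87651129, plus strand) encodes an adhesion protein of epithelial cells and was the steadiest of the 9 genes. Counts were 4090 ± 102.9 on RD, 4224 ± 258 on HFD and 4234 ± 163 on HFD-O304 (SD, n = 7). The groups overlapped and no comparison passed. The 95% intervals of the fold were 0.966 to 1.1 for HFD over RD, 0.972 to 1.1 for HFD-O304 over RD and 0.945 to 1.07 for HFD-O304 over HFD.

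Muc1 (chr3:89229057-89233381, plus strand) encodes a mucin of the apical membrane of duct and acinar cells. Its counts were 20.3, 27.7 and 83.4 (lowest, median and highest) on RD, 17, 23.0 and 62.2 on HFD, and 19.6, 34.3 and 109.4 on HFD-O304. In each group 1 or 2 samples were far above the others, and the groups overlapped throughout. No comparison passed, and the 95% interval of the fold of HFD-O304 over HFD, 0.802 to 2.34, was wide.

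Cftr (chr6:18170687-18322768, plus strand) encodes the chloride and bicarbonate channel of the duct's apical membrane and was the scarcest of the 9 genes. The deposited counts were 3 to 16 read pairs per sample on RD, 0 to 6 on HFD and 4 to 92 on HFD-O304. After scaling, the lowest, median and highest values were 2.77, 7.79 and 15.3 on RD, 0.00, 3.28 and 6.01 on HFD, and 7.12, 11.8 and 81.2 on HFD-O304. Every HFD-O304 sample was above every HFD sample, by little at the nearest point, and RD overlapped both. Cftr was 6.42-fold higher in HFD-O304 than in HFD, with a wide 95% interval of 3.0 to 13.8 (adjusted p = 0.000879). The value of 81.2 came from HFD-O304 replicate 4, and the other 6 samples lay between 7.12 and 17.5. Without that replicate the log2 difference fell from 2.68 to 1.83 (adjusted p = 0.00318) and the call held, as it did when any other sample was left out. Within replicates 1 to 4 the difference was 2.83 (adjusted p = 0.0126) and within replicates 5 to 7 it was 2.27 (adjusted p = 0.0161), with fewer samples in each. Against RD the log2 difference was 1.41 ± 0.49 (SE, adjusted p = 0.138), and 0.55 without replicate 4 (adjusted p = 0.577). HFD against RD gave -1.28 ± 0.62 (SE, adjusted p = 0.241).

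Spp1 (chr5:104435118-104441050, plus strand) encodes osteopontin, a secreted matrix protein of duct cells that macrophages also make. Of its exon bases 18.8% are shared with the same-strand gene model Gm42793, where read pairs cannot be assigned to either. Counts were 1478, 2130 and 2863 (lowest, median and highest) on RD, 2443, 3059 and 4110 on HFD, and 1929, 2511 and 3952 on HFD-O304. HFD samples were mostly above RD samples but the ranges overlapped, and the highest HFD-O304 value was again that of replicate 4. HFD over RD was 1.47-fold (95% interval 1.2 to 1.81, adjusted p = 0.0214) and did not pass, but it passed without HFD-O304 replicate 4 in the shared fit (log2 difference 0.56, adjusted p = 0.00777). HFD-O304 against HFD gave -0.33 ± 0.15 (SE, adjusted p = 0.138).

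Neurog3 (chr10:62133090-62134763, plus strand) starts endocrine differentiation in the embryo. An antisense gene, Fam241b, overlaps 16.3% of its exon bases, and the strand-specific counts used here keep the pair apart. Counts were 81.3, 143 and 157 (lowest, median and highest) on RD, 47.0, 68.0 and 151 on HFD, and 120, 126 and 154 on HFD-O304. The HFD samples were lower in the middle of their range but reached nearly as high as the other groups, which lay close together. HFD against RD gave a log2 difference of -0.68 ± 0.19 (SE, adjusted p = 0.0232) and HFD-O304 against HFD one of 0.69 ± 0.19 (adjusted p = 0.0104), both short of the threshold. With library set as a covariate HFD-O304 against HFD passed (0.73, adjusted p = 0.00241), and it was called in 9 of 13 alternatives that kept all samples or 1 library set. Of the 9, 1 was the same fit read at an adjusted p of 0.05, which 0.0104 passes without a new test. HFD-O304 against RD gave a fold of 1.0 (95% interval 0.780 to 1.29).

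The HFD samples of Neurog3 split by library set. HFD replicates 1 to 4 had 47.0 to 68.0 counts, below every other sample, and HFD replicates 5 to 7 had 90.7 to 151. Within replicates 1 to 4, HFD was lower than RD by 1.13 on the log2 scale (adjusted p = 0.00216) and HFD-O304 was higher than HFD by 1.22 (adjusted p = 0.000393). Within replicates 5 to 7 the differences were -0.30 (adjusted p = 0.391) and 0.18 (adjusted p = 0.620). The test of the difference between sets gave unadjusted p = 0.00643 and 0.000987, and adjusted p = 0.668 and 0.707 over all genes, so it did not pass either. HFD replicate 7 was the highest HFD sample, and without it both comparisons passed (-0.90, adjusted p = 0.000523, and 0.90, adjusted p = 0.000178). HFD against RD also passed without RD replicate 2 (-0.77, adjusted p = 0.00807), and HFD-O304 against HFD also passed without RD replicate 2 (0.69, adjusted p = 0.00587) and without HFD replicate 6 (0.75, adjusted p = 0.00762). DESeq2 called both comparisons, where it called 19.9% of all genes for HFD-O304 against HFD.

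HFD-O304 replicate 4 gave the highest value of its group for 6 of the 9 genes (Sox9, Krt18, Spp1, Cftr, Epcam and Muc1), where 15.9% of 24308 genes with a mean of at least 1 normalised read count had their highest value in that sample. RD replicate 4 came next, with 4 of the 9 in its group. HFD-O304 replicate 4 was thus the most extreme of the 21 samples and was singled out after the values were seen. The ratio to the median of the other 6 HFD-O304 samples was 6.96 for Cftr, 3.66 for Muc1, 2.05 for Sox9 and 1.69 for Spp1, and only 1.1 for Krt19 and 0.899 for Neurog3. Other markers moved with it. Among 40 further duct-cell genes, 15 were highest in this sample, with ratios of 7.26 for Lcn2, 6.81 for Lamb3, 4.45 for Wfdc2 and 4.16 for Aqp1, genes named because their ratios were large. The same was true of 13 of 20 macrophage markers and 8 of 10 stellate and mesenchymal markers, with a ratio of 4.71 for the collagen gene Col1a1. The acinar list did not move with it: 0 of 30 acinar markers were highest in this sample, and their median ratio was 0.986. The summed macrophage markers ran from 6676 to 9389 in HFD-O304, against 6110 to 8399 in HFD and 6073 to 7436 in RD, and the summed stellate markers from 6363 to 11159, against 11632 to 21143 and 9746 to 13555. The part of these other cells in the values of Cftr, Muc1, Sox9 and Spp1 in this sample was not tested.

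**Figure D3:**
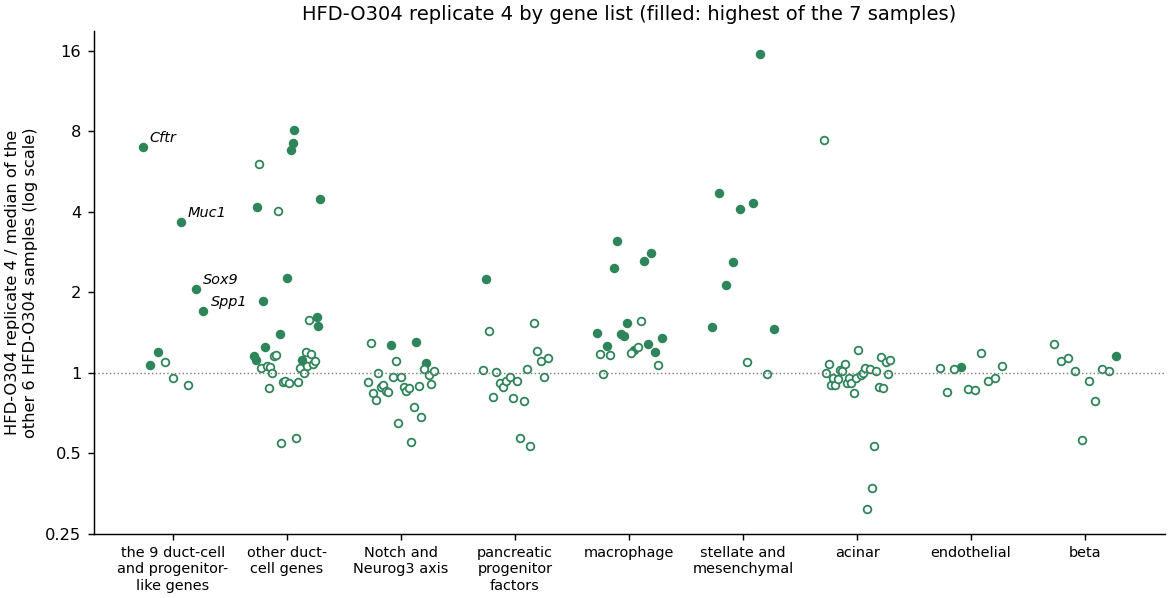
Ratio of HFD-O304 replicate 4 to the median of the other 6 HFD-O304 samples (vertical axis, log scale) for each gene of 9 lists, filled where this sample was the highest of the 7. Cftr, Muc1, Sox9 and Spp1 stand above 1 together with duct-cell, macrophage and stellate genes, whereas most acinar, endothelial and Notch-related genes lie near 1.

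Acinar tissue varied strongly between samples. The summed counts of 30 acinar enzymes and factors ran from 9828 to 421626 on RD (median 27618), from 6868 to 340790 on HFD (median 45640) and from 5205 to 145985 on HFD-O304 (median 62688), all 30 having passed the filter on low counts. Over the 21 samples, with group means removed, Muc1 followed this acinar level (Pearson's r = 0.739, Spearman's rho = 0.791, permutation p = 7e-05 for each, adjusted p = 0.00063 over the 9 genes). Without the 2 samples farthest from the median acinar level r was 0.760. Within replicates 1 to 4 r was 0.513 (permutation p = 0.0843), and within replicates 5 to 7 it was 0.939 (permutation p = 8.54e-05). For Spp1 r was 0.436 (rho = 0.478, permutation p = 0.0476 and 0.0296, adjusted p = 0.214 and 0.133), and for the other 7 genes r lay between -0.217 and 0.329. The acinar list itself had a median log2 difference of -0.81 for HFD-O304 against HFD, with 1 of 30 genes past the threshold. With the acinar level as a covariate, Krt19 (log2 difference 1.18), Sox9 (0.94), Cftr (2.68) and Krt18 (-0.45) remained past the threshold for HFD-O304 against HFD, and Neurog3 (0.70, adjusted p = 0.00989) passed as well.

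**Figure D4:**
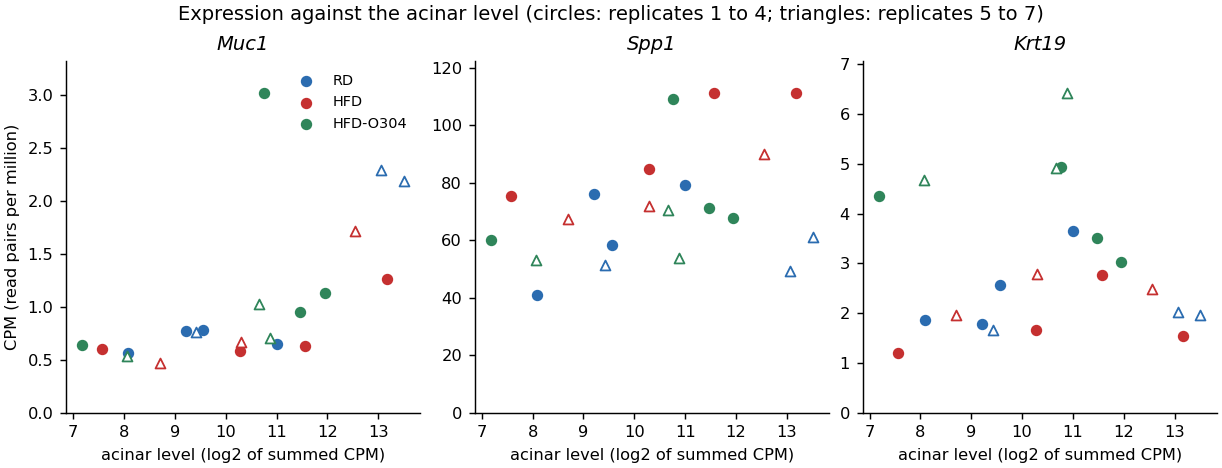
CPM (counts scaled to the total of each sample) of Muc1, Spp1 and Krt19 against the acinar level, the log2 of the summed CPM of 30 acinar genes, in 21 samples coloured by diet, with circles for replicates 1 to 4 and triangles for replicates 5 to 7. Muc1 is high in the samples at the right of the acinar axis and in HFD-O304 replicate 4, and the HFD-O304 samples lie above most others for Krt19.

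Pairs of the 9 genes were compared over the 21 samples with group means removed, 36 pairs in all. Of these, 5 had an adjusted p under 0.05 by permutation of Pearson's r: Krt7 with Krt18 (r = 0.719, rho = 0.709, adjusted p = 0.00972), Krt18 with Spp1 (r = 0.680, rho = 0.561, adjusted p = 0.0112), Sox9 with Epcam (r = 0.637, rho = 0.630, adjusted p = 0.0167), Spp1 with Epcam (r = 0.624, rho = 0.606, adjusted p = 0.0181) and, with opposite sign, Krt7 with Neurog3 (r = -0.642, rho = -0.640, adjusted p = 0.0167). Without the 2 samples farthest on the axis of the first gene, r was 0.638, 0.582, 0.564, 0.632 and -0.459, and none had an adjusted p under 0.05. Within library sets the relations were uneven. Sox9 with Epcam and Krt18 with Spp1 passed within replicates 1 to 4 (r = 0.801 and 0.856), but r for Krt18 with Spp1 was -0.193 within replicates 5 to 7. Krt7 with Neurog3 passed within replicates 5 to 7 (r = -0.918) and had r = -0.0170 within replicates 1 to 4. With group means taken within library set, Krt7 with Neurog3 (r = -0.369, adjusted p = 0.255), Krt7 with Krt18 (0.542, adjusted p = 0.0656) and Spp1 with Epcam (0.495, adjusted p = 0.114) no longer passed.

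The genes whose pattern over the 21 samples was most like each member, by r of log2 CPM with group means removed, were taken from the 13216 genes with a mean of at least 50 counts. For Krt18 these were Gorasp2 (0.97), Pdia4 (0.97) and Fam174b (0.96), and for Krt7 D030028A08Rik (0.95), Fen1 (0.91) and Ptprn (0.90). For Cftr they were Laptm5 (0.84), Lyz2 (0.78) and Stau1 (0.78), of which Lyz2, the lysozyme of macrophages, is on the macrophage list. For Muc1 they were the acinar genes Pla2g1b (0.78) and Spink1 (0.77) and Pdia2 (0.76). For Neurog3 they were Rab19, Rasgrf1 and Spry2 (0.85 to 0.86), for Krt19 Gm16286, Slc2a1 and Napa (0.80 to 0.86), for Sox9 Srfbp1, Cd24a and Dnaja2 (0.71 to 0.77), for Spp1 Cp, Rtn3 and Arl6ip5 (0.86 to 0.90), and for Epcam Atic, Armc10 and Fuca2 (0.83 to 0.88).

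Other duct-cell genes moved in both directions. Of 40 listed, 38 were tested. For every list here and below, the share of all genes past the threshold was 11.9% for HFD-O304 against HFD. It was 3.54% for HFD against RD and 1.31% for HFD-O304 against RD. For HFD-O304 against HFD, 6 of the 38 duct genes rose and 4 fell, and their median log2 difference was 0.11 (0.005 without HFD-O304 replicate 4). Those that rose included Cldn4, a tight-junction claudin (0.82, adjusted p = 1.90e-05, no overlap between groups), Cd24a, a surface glycoprotein of epithelial progenitors (0.43), and Slc4a4, the sodium bicarbonate cotransporter of the basal membrane (0.43). Among those that fell were Prom1, a protein of membrane protrusions (-0.91, adjusted p = 8.45e-09, no overlap), and Slc12a2, the basolateral chloride carrier (-0.33). Transporters of the duct thus did not share one direction, since Cftr and Slc4a4 rose while Slc12a2 fell and Slc26a3, an anion exchanger with 16.1 counts or fewer in any sample, fell by 2.77 on the log2 scale. Slc26a3 was named after its values were seen. With HFD-O304 replicate 1 counted as HFD, 3 rose and 2 fell, and Cd24a (0.34, adjusted p = 0.0184) and Slc26a3 (-2.47, adjusted p = 0.0133) were among those no longer past the threshold.

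For HFD against RD, Krt8 rose and Ehf, an ETS factor of epithelia (-0.34), and Slc4a4 (-0.37) fell, with a list median of 0.02. These calls were close to the threshold: Ehf kept its call in 9 of the 21 fits with 1 sample left out and Slc4a4 in 8. Ehf lost it without HFD-O304 replicate 1 (-0.33, adjusted p = 0.0103), and with that sample counted as HFD 0 of the 38 passed in edgeR, 10 having an unadjusted p under 0.05. For HFD-O304 against RD, Prom1 fell (-0.61, adjusted p = 2.61e-05) and no other duct gene passed. Prom1 kept this call in all 21 fits with 1 sample left out but not with HFD-O304 replicate 1 counted as HFD (-0.62, adjusted p = 0.0105). Onecut1, a progenitor and duct factor, was near the limit of detection, with means of 1.72 counts on RD, 3.71 on HFD and 3.22 on HFD-O304.

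The Notch pathway and the genes around Neurog3 were measured through 30 genes, 29 of them tested. For HFD-O304 against HFD 4 rose and 5 fell, where 11.9% of all genes passed in either direction, with a list median of 0.13. The ligand Dll1 rose (log2 difference 0.92, adjusted p = 4.08e-06), with counts of 185 to 273 in HFD-O304 against 82.4 to 149 in HFD. The ligand Jag1 (-0.70), the receptor Notch3 (-0.98) and the Notch target Heyl (-1.08) fell, each without overlap between these groups, and the glycosyltransferase Rfng fell by 0.32. Rfng kept its call in only 8 of the 21 fits with 1 sample left out and lost it without HFD-O304 replicate 1 (-0.29, adjusted p = 0.0239) and with it counted as HFD (-0.23, adjusted p = 0.145). Jag1, Heyl and Rfng, and Fev in the account of Neurog3 targets, were named after their values were seen, as was Ttr. Notch3 is known from pericytes and other mural cells, and the stellate and mesenchymal markers moved with it: 6 of 10 fell, with a list median of -0.89 (5 of 10 without HFD-O304 replicate 1, and 4 with it counted as HFD). The part of those cells in the Notch3, Jag1 and Heyl values was not tested. Hes1, the Notch target that represses Neurog3 in the embryo, did not pass in any comparison, with 286 ± 18.9 counts on RD, 249 ± 18.5 on HFD and 280 ± 43.2 on HFD-O304 (SD, n = 7).

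Among genes that act after Neurog3 in development, Neurod1 rose in HFD-O304 over HFD (0.40, adjusted p = 1.95e-05), with counts of 3754 to 4828 against 2727 to 3616. Neurog3 itself did not pass in this comparison. Fev, a factor of endocrine precursors, rose by 0.69, though not past the threshold with HFD-O304 replicate 1 counted as HFD (0.54, adjusted p = 0.0371). Of the 6 alpha-cell markers, 5 rose for HFD-O304 against HFD and 1 fell, Ttr (-1.20), which encodes transthyretin (3 rose and 1 fell with HFD-O304 replicate 1 counted as HFD). For HFD against RD, 4 of the 6 fell and 1 rose (0 and 0 with that sample counted as HFD). Of 5 delta-cell and PP-cell markers, 4 rose for HFD-O304 against HFD, with a list median of 0.78. The part of endocrine cell types in the Neurod1, Fev and Cdkn1a values was not tested. Cdkn1a, an inhibitor of the cell cycle that Neurog3 can induce, fell by 1.06. In HFD against RD 2 of the 29 rose, Notch3 (0.59) and Cdkn1a (0.64), and 1 fell. The stellate and mesenchymal markers were higher here too, 10 of 10 by sign with a median of 0.55 and 2 past the threshold. Both genes lost the call without RD replicate 5 or 7 or HFD replicate 3 or 4, and Notch3 also without HFD replicate 5. None of the 29 passed with HFD-O304 replicate 1 counted as HFD, where 12 had an unadjusted p under 0.05. For HFD-O304 against RD none of the 29 passed in edgeR, 10 had an unadjusted p under 0.05, where 14.4% of all genes did, and DESeq2 called 3 higher, where it called 3.87% of all genes.

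Of 20 pancreatic progenitor factors, all tested, 4 rose and 0 fell for HFD-O304 against HFD, with a list median of 0.17. Of all genes, 11.9% passed in either direction in this comparison. Gata6, a zinc-finger factor needed for pancreas formation, gave the clearest difference, with 312 to 374 counts on RD, 206 to 306 on HFD and 347 to 400 on HFD-O304. The HFD samples lay below both other groups with no overlap, and the log2 differences were -0.55 for HFD against RD (adjusted p = 0.000142) and 0.65 for HFD-O304 against HFD (adjusted p = 1.94e-06). Prox1 followed (-0.34 and 0.28), and Foxa2 (0.31) rose for HFD-O304 against HFD. Gata6 kept both calls in all 21 fits with 1 sample left out. Foxa2 kept its call in 7 of them and lost it without HFD-O304 replicate 1 (0.28, adjusted p = 0.0265), and Prox1 lost the call against HFD without HFD replicate 3 or 4 or HFD-O304 replicate 6. With HFD-O304 replicate 1 counted as HFD, Gata6 (-0.42, adjusted p = 0.0469) and Prox1 (-0.31, adjusted p = 0.0263) no longer passed for HFD against RD. Gata6 still passed for HFD-O304 against HFD (0.50, adjusted p = 0.00537), and Prox1 (0.25, adjusted p = 0.0301) and Foxa2 (0.22, adjusted p = 0.150) did not. Between HFD-O304 and RD none of the 20 passed in edgeR or in DESeq2, and 4 had an unadjusted p under 0.05 in edgeR, against the 14.4% of all genes.

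Known targets and partners of SOX9 and of YAP, a cofactor of the TEAD factors in progenitors, numbered 14, of which 13 were tested. None rose and 3 fell for HFD-O304 against HFD, where 11.9% of all genes passed in either direction. The 3 that fell were Axl, a receptor tyrosine kinase (-0.82, adjusted p = 1.59e-08), Ajuba (-0.74) and Wwtr1, which encodes the YAP homologue TAZ (-0.34). The list pools genes of both factors, so its counts do not show the SOX9 targets alone. Of the stellate and mesenchymal markers 6 of 10 fell too (median -0.89), and of the endothelial markers 4 of 10 (median -0.36). The part of those cells in the Axl, Ajuba and Wwtr1 values was not tested. Axl also rose in HFD over RD (0.43) and was lower in HFD-O304 than in RD (-0.39). The call of HFD-O304 against RD was lost without HFD-O304 replicate 1 (-0.36, adjusted p = 0.0124), HFD-O304 replicate 6, RD replicate 3 or RD replicate 4. With HFD-O304 replicate 1 counted as HFD, Axl passed for HFD-O304 against HFD (-0.69, adjusted p = 0.000797) but not for HFD against RD (0.33, adjusted p = 0.133) or HFD-O304 against RD (-0.36, adjusted p = 0.217), and Ajuba (-0.59, adjusted p = 0.0438) and Wwtr1 (-0.27, adjusted p = 0.0851) did not pass. Wwtr1 kept its call in 14 of the 21 fits with 1 sample left out, and without HFD-O304 replicate 1 it did not pass (-0.32, adjusted p = 0.0144). The list median for HFD-O304 against HFD was 0.04, and -0.24 without HFD-O304 replicate 1.

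**Figure D5:**
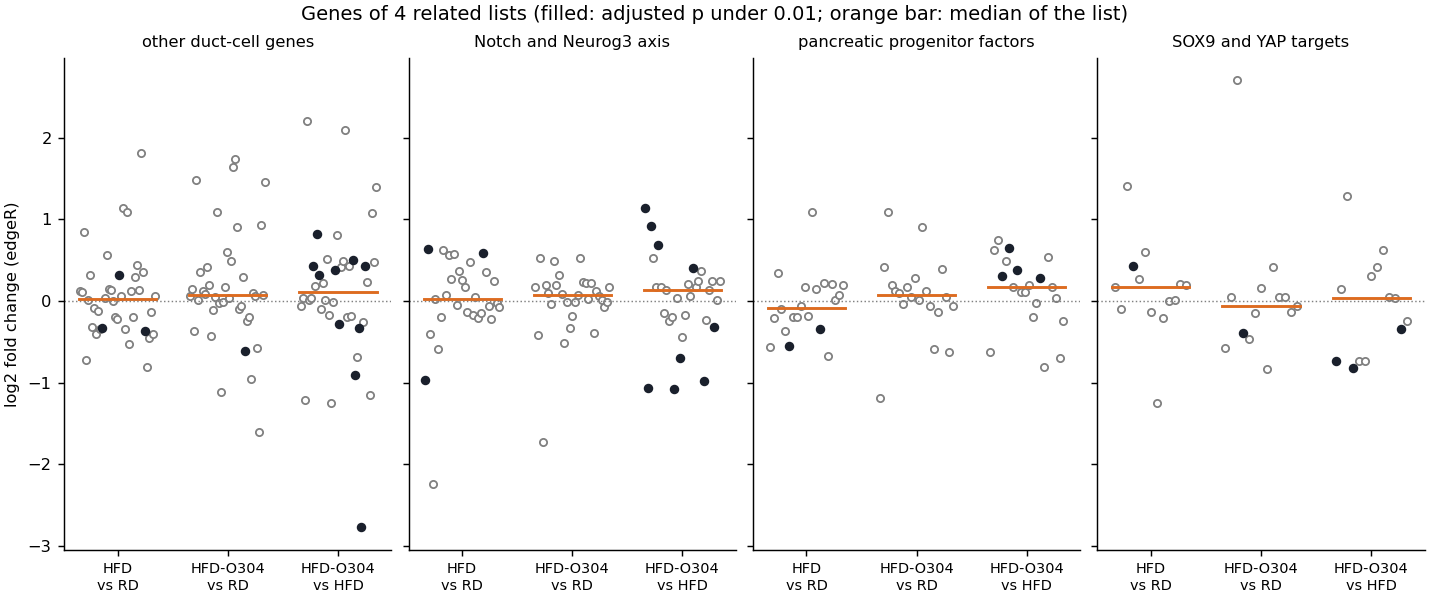
Log2 fold change (vertical axis, from the edgeR fit over all genes) of each tested gene in 4 related lists for the 3 comparisons, filled where the adjusted p was under 0.01, with an orange bar at the list median. The medians of the 4 lists lie between -0.08 and 0.17, and filled points lie on both sides for duct-cell and Notch genes in HFD-O304 against HFD but only above 0 for the progenitor factors.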

How the data were processed

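RNA-seq of 150 pooled islets per sample (5 mice, 7 samples per diet group) was used, and the other assays of the study were not analysed here. The deposited files hold raw counts of read pairs per gene, which the authors made from 50-nt paired-end TruSeq libraries with FastQC and STAR (versions not given in the sources used here) on GRCm38 with the Ensembl 96 annotation, without normalisation. Column 4, the antisense strand, was used, because it held 28.8 to 36.3 times the pairs of the other strand. Identifiers were matched to gene symbols with GENCODE M21, which corresponds to Ensembl 96 (55536 of 55536). Between 7.28% and 9.03% of pairs mapped to several places and 0.935% to 1.04% to several genes, and neither kind was counted.

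Genes with a row sum of at least 10 were tested with edgeR 4.0.16 (quasi-likelihood F test, TMM, all 3 groups in 1 fit, no covariate) in R 4.3.3, and p-values were Benjamini-Hochberg adjusted over all 27229 genes, with a threshold of 0.01 and a correlation threshold of 0.05. Standard errors were computed as the size of the log2 difference divided by the square root of F, and 95% intervals from them with the normal distribution. These intervals can be narrower than the test implies. For Cftr in HFD over RD the interval was 0.177 to 0.964, while the edgeR test gave an unadjusted p of 0.051. Normalised read counts used DESeq2 1.42.0 size factors. Correlations used two-sided permutation tests (100000 draws) in scipy 1.17.1 on log2 CPM with group means removed. The scripts were tested on simulated data. Named were all 9 genes, at most 4 genes per list and comparison past the threshold, smallest p first, Krt8, Hes1, Onecut1 and Neurod1 whatever their values, and the 3 genes most like each member. Some listed genes are counted but not reported here by name. The members and lists were chosen with earlier results of these data known. The samples are separate islet pools, so p-values measure the spread between pools, which includes technical spread. No pair of replicates agreed within counting noise (chi-square per gene 8.05 or more). Alternatives were DESeq2, other scaling and filters, unstranded counts, 2-group fits, a replicate block, library set, an acinar covariate and each sample left out. HFD-O304 replicate 1 counted as HFD, and the list counts and list genes under other settings, were added after seeing the data.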

Additional observations from a re-analysis of the deposited data

Results flagged for a closer look

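The highest or lowest of 7 samples stood apart from the nearest other sample by more than Dixon's 95% critical value allows in 6 of 27 gene-and-group combinations, where chance alone flags about 1 in 20. In 5 of the 6 it was HFD-O304 replicate 4, as the highest sample of its group. It had 81.2 normalised read counts of Cftr, 3410 of Krt18, 109.4 of Muc1, 184 of Sox9 and 3952 of Spp1. The other was RD replicate 2, the lowest RD sample for Neurog3 with 81.3 counts. Without HFD-O304 replicate 4, Cftr and Krt18 kept their calls for HFD-O304 against HFD (log2 differences 1.83 and -0.49), Sox9 (0.69) lost it, and Muc1 moved from 0.45 to -0.031 with no call in either case. The part of non-endocrine cells in these values was not tested.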

How the results depend on the processing

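The number of the 9 genes called for HFD against RD, 0 as reported, was 3 with DESeq2, 1 without a filter on low counts, 2 with the replicate block, 3 with library set as a covariate, 1 within replicates 1 to 4 (Neurog3), 1 within replicates 5 to 7 (Krt18) and 3 at an adjusted p of 0.05, and 0 to 2 with 1 sample left out (2 without HFD replicate 7, 1 without RD replicate 2 or HFD-O304 replicate 4). Of all genes, 9.92% passed with DESeq2, 2.68% without the filter and 5.79% with the replicate block, against 3.54% as reported. The share was 5.92% with library set, 2.25% within replicates 1 to 4 and 1.25% within replicates 5 to 7. At an adjusted p of 0.05 it was 7.89%, and without HFD replicate 7 it was 5.89%. For HFD-O304 against RD, 1 of the 9 as reported, the number was 0 within replicates 1 to 4 and with HFD-O304 replicate 1 counted as HFD. In these settings 0.339% and 0.202% of all genes passed, against 1.31% as reported. For HFD-O304 against HFD, 4 of the 9 as reported, the number was 2 within replicates 5 to 7 and with HFD-O304 replicate 1 counted as HFD, 5 with DESeq2, with the replicate block and with library set or the acinar level as a covariate, and 2 to 5 with 1 sample left out. Of all genes, 5.95% passed within replicates 5 to 7 and 5.29% with that sample counted as HFD, against 11.9% as reported. The share was 19.9% with DESeq2, 13.8% with the replicate block, 13.9% with library set and 11.5% with the acinar level. With 1 sample left out it ran from 9.75% to 13.2%. The test of a difference between library sets called 0 of all genes in edgeR (1862, 1516 and 1314 at an unadjusted p under 0.05 in the 3 comparisons, for 2, 4 and 2 of the 9 genes), and 1 of the 9 (Muc1, HFD-O304 against RD) without a filter on low counts. One gene followed the acinar level as reported, against 2 with group means taken within library set, 2 with the replicate block and 0 within replicates 1 to 4. Against 5 correlated pairs as reported, 4 passed with means within library set, 4 with the replicate block (where Krt18 with Spp1 fell to r = 0.421, adjusted p = 0.251, and Krt19 with Muc1 passed at -0.662), 2 within replicates 1 to 4, 1 within replicates 5 to 7 and 0 without the 2 farthest samples. The cause of these changes was not tested.

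Directions that turned were all of differences short of the threshold as reported. For HFD against RD, Krt19 was 0.36 within replicates 5 to 7 and 0.10 with HFD-O304 replicate 1 as HFD, and Muc1 0.12 within replicates 1 to 4. For HFD-O304 against RD, Krt7 was -0.079 within replicates 1 to 4, Krt18 0.086 within replicates 5 to 7, Muc1 -0.0006 with unstranded counts, -0.028 with the replicate block and -1.17 within replicates 5 to 7, and Neurog3 -0.0073 in the 2-group fit, -0.11 within replicates 5 to 7 and -0.023 with HFD-O304 replicate 1 as HFD. For HFD-O304 against HFD, Krt7 was 0.092 within replicates 5 to 7, Epcam -0.012 within replicates 1 to 4 and Muc1 -0.28 within replicates 5 to 7. With 1 sample left out, Krt19 for HFD against RD ran from -0.19 to 0.067, Muc1 and Neurog3 for HFD-O304 against RD from -0.48 to 0.27 and from -0.075 to 0.047, and Epcam and Muc1 for HFD-O304 against HFD from -0.0098 to 0.027 and from -0.031 to 0.73.

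The labels give no pairing by replicate number. The deviations of same-numbered samples over genes correlated above 0 in 17 of 21 pairs and above 0.1 in 15 (range -0.53 to 0.69). In 16 of 42 cases a sample correlated best with its own number among the 7 samples of the other group. Since not every pair was above 0.1, the numbers were not taken to pair the samples. That rule fails if a single pair falls short, so it does not show that the numbers carry no shared structure. As a pairing check only, the replicate block moved the calls to 2, 1 and 5 of the 9 genes in the 3 comparisons. The share of all genes called moved from 3.54%, 1.31% and 11.9% to 5.79%, 1.99% and 13.8%. Depth limits Cftr and Onecut1, whose counts were near 0 in many samples. Bulk counts do not say from which cells the read pairs of a gene came.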
